A study of Mus musculus with 22 samples.

Results

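Grem1 encodes gremlin 1, a secreted protein that binds bone morphogenetic proteins (BMPs) and keeps them from their receptors. Tgfb1 encodes transforming growth factor β1 (TGF-β1), the founding ligand of the same superfamily. The peaks described here are those of Grem1 and of every gene in the deposited ac4C peak table whose symbol is that of a TGF-β or BMP ligand, a receptor of these ligands or a Smad. They were 20 of the 9857 peaks of the table and lay in 12 genes. Of these, 2 peaks belonged to Grem1 and 18 to 11 family genes. The table lists peaks of each genotype apart, so some overlapped, and joining overlapping peaks left 15 regions, 1 of Grem1 and 14 of the family genes. Grem1 was chosen because its IP reads differed between the genotypes, so its genotype values are a description and carry no test. The family genes were chosen by name.

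N4-acetylcytidine (ac4C) is a modified base of RNA, and the study asked how ac4C written by the acetyltransferase NAT10 differs in the kidney in diabetes. Kidneys came from 6 male db/db mice, obese and diabetic because their leptin receptor does not work, and from 5 male db/m mice, their heterozygous nondiabetic controls. The labels name no treatment for either group. The age of the mice when these kidneys were taken is not given in the sources used here. Each animal had an ac4C IP library, in which mRNA fragments recovered with an ac4C antibody were sequenced, and an RNA-seq library, named input in the peak table, which gives the amount of the transcript. Whole kidney was used, so fewer cells of a type and less RNA per cell cannot be told apart.

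Ligands of the superfamily are secreted dimers that bring type I and type II receptor kinases together. TGF-β and activin type I receptors phosphorylate Smad2 and Smad3, and BMP type I receptors phosphorylate Smad1, Smad5 and Smad9, before these enter the nucleus with Smad4. Smad6 and Smad7 inhibit the pathway, and gremlin 1, noggin and chordin block BMPs outside the cell. In the kidney TGF-β is best known for driving fibrosis, and Bmp7 for its need in kidney development and for opposing TGF-β. Grem1 is expressed in the developing kidney and its transcript has been found raised in diabetic kidneys.

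The IP libraries held 7577171 to 10293757 reads in peaks and the RNA-seq libraries 3151035 to 3352535. Reads per peak were scaled to a library of 1000000 reads (CPM) after TMM normalization, and 3 reads, the most that a count of 0 allows, came to 0.305 to 0.362 CPM in IP and 0.857 to 0.981 CPM in RNA-seq libraries. Markers of proximal tubule, thick ascending limb, collecting duct and podocytes had reads in every library. Some of them differed between the genotypes. Aqp2 of the collecting duct rose in db/db by a log2 fold change of 1.56 in IP (edgeR adjusted p = 0.00132) and 1.38 in RNA-seq reads (edgeR adjusted p = 7.8e-05). The proximal tubule genes Lrp2 and Slc34a1 fell in RNA-seq reads, by 0.90 (edgeR adjusted p = 0.0033) and 1.04 (edgeR adjusted p = 0.0181) on the log2 scale, and also in IP reads, by 0.92 and 0.98. The best covered Synpo peak, of podocytes, rose by 0.67 in RNA-seq reads (edgeR adjusted p = 0.0449). The other markers of these cell types did not pass in either library type. Among them were Aqp1 and Slc5a2 of the proximal tubule. So were Aqp3 and Atp6v1g3 of the collecting duct, with RNA-seq log2 fold changes of 0.47 (edgeR adjusted p = 0.0611) and 0.01. Of the 7 lung markers listed, 6 had a peak. Their summed IP level was 11.5 to 47.8 CPM for db/db animals 1 to 4, 0.206 and 0.223 CPM for the other two and 0 to 1.48 CPM for the db/m animals. In the RNA-seq libraries the same sum was 0 to 1.14 CPM in db/db and 0.327 to 1.27 CPM in db/m animals. Values without db/db animals 1 to 4 are therefore given for IP and RNA-seq reads where a test was no longer passed or a value moved by more than 1.5 times.

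Most of the peak regions lay near one end of their genes, and the share of all peaks that do so is not given here. Of the 15 regions, 8 were centred in the first 10% of the RefSeq gene and 5 in the last 10% or past its end, which leaves 1 region of Smad2 at 30.4% and 1 of Smad9 at 87.6%. Of the early regions, only that of Tgfb1 and the best covered of Smad7 had a mean of 10 or more IP reads. The Grem1 peaks were on the minus strand of chromosome 2 of GRCm38, the build in the submitters' processing notes, at chr2:113748372-113748581 in the db/m list and chr2:113748372-113748551 in the db/db list. RefSeq places Grem1 at chr2:113748675-113758648, so the nearer edges of these peaks lay 94 and 124 bases past the end of the gene, where this annotation has no other gene. The Tgfb1 peaks, chr7:25687181-25687330 in the db/m list and chr7:25687181-25687300 in the db/db list, were in the first 2% of the gene, which runs on the plus strand from 25687002 to 25705077. The fold enrichment deposited for the peaks, the IP signal over its background in the peak call, was 9.50 and 11.3 for Grem1 and 5.96 and 8.18 for Tgfb1, in the same order of lists. Of the 20 peaks, 6 had a deposited peak FDR over 0.05, or 30% against 15.5% of all peaks. They were the peaks of Tgfb2, Smad9 and Acvr1c, the Smad7 peak starting at base 75368579, the db/m peak of Bmp1 and the db/db peak of Smad2 near the gene start.

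**Figure D1:**
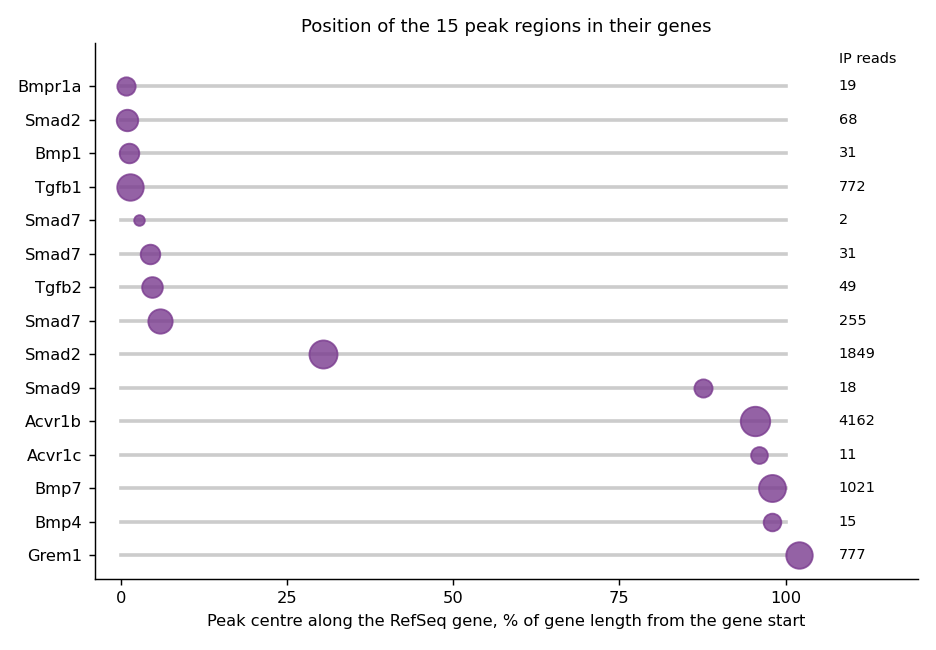
Centre of each of the 15 peak regions along its gene. The x axis gives the position in % of gene length from the gene start, each line is a gene and the point grows with the logarithm of the IP reads of all 11 animals, which are printed at the right. The well-covered peaks of Acvr1b and Bmp7 sit near the gene end, at 95.4% and 97.9%, and that of Grem1 sits past it. Those of Tgfb1 and Smad7 sit near the start, and the main Smad2 peak sits at 30.4%.

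The 250 bases before the gene starts of Grem1 and Tgfb1, the 2 genes the results turn on, are shown from RefSeq (GRCm38.p6). For Grem1 they are chr2:113758649-113758898 on the minus strand and for Tgfb1 chr7:25686752-25687001 on the plus strand. Capitals mark matches to the GC box, GGGCGG or its reverse complement CCGCCC, and to the SMAD box, CAGAC or GTCTG.
Grem1: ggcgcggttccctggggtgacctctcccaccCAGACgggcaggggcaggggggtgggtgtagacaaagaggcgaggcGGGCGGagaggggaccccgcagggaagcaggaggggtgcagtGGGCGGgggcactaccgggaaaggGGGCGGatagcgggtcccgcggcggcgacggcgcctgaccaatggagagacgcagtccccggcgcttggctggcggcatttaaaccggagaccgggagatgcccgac
Tgfb1: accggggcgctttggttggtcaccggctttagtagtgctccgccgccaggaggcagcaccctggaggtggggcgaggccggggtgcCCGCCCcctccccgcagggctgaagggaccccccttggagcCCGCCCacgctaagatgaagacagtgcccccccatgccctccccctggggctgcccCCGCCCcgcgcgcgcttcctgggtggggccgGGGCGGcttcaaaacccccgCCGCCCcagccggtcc
Both stretches were rich in G and C, at 72.0% for Grem1 and 75.2% for Tgfb1. The Grem1 stretch held 3 GC boxes and 1 SMAD box, and the Tgfb1 stretch held 5 GC boxes and no SMAD box. Neither held TATAAA or TTTATA. Among 32851 RefSeq windows of the same length, 32.7% held a GC box, 42.2% a SMAD box and 12.4% a TATA box, so these matches describe the sequence and name no site in use.

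Tgfb1, Tgfb2, Bmp1, Bmp4 and Bmp7 were the ligand family genes with a peak, although Bmp1 is by function a procollagen proteinase that keeps a BMP name. In the longer Tgfb1 peak, db/db animals 1 to 6 gave 34, 80, 118, 114, 86 and 48 IP reads, and db/m animals 1 to 5 gave 56, 53, 78, 71 and 34. The groups overlapped, with db/db animals 1 and 6 below most db/m animals. The IP means were 9.09 ± 4.11 CPM (SD, n = 6) for db/db and 6.28 ± 1.89 CPM (SD, n = 5) for db/m mice, which is a log2 fold change of 0.53 (SE 0.36, 95% interval -0.23 to 1.30, edgeR adjusted p = 0.436) and came to 0.21 without db/db animals 1 to 4. The RNA-seq reads of Tgfb1 were few, at 3, 5, 11, 12, 6 and 10 in db/db and 7, 8, 6, 5 and 4 in db/m mice. These groups overlapped too, and the log2 fold change of RNA-seq reads was 0.30 (SE 0.38, 95% interval -0.49 to 1.09, edgeR adjusted p = 0.651). IP relative to RNA-seq reads differed by 0.24 on the log2 scale (SE 0.50, 95% interval -0.74 to 1.22, edgeR adjusted p = 0.954), which fell to -0.24 without db/db animals 1 to 4. The shorter Tgfb1 peak of the db/db list shares most of these reads and gave an IP log2 fold change of 0.53 and an RNA-seq log2 fold change of 0.42.

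Bmp7, which signals through BMP receptors and is made by kidney tubules, had a peak of 150 bases in the db/m list at chr2:172869444-172869593. The IP gave 92, 76, 51, 83, 68 and 92 Bmp7 reads in db/db and 84, 88, 158, 127 and 102 in db/m mice, with db/m animals 3 and 4 highest. The means were 8.68 ± 1.74 CPM (SD, n = 6) in db/db and 12.1 ± 3.58 CPM (SD, n = 5) in db/m mice, which is a log2 fold change of -0.48 (SE 0.27, 95% interval -1.05 to 0.10, edgeR adjusted p = 0.342). RNA-seq reads of Bmp7 were 46, 28, 28, 25, 20 and 29 in db/db and 45, 21, 35, 33 and 43 in db/m mice. The RNA-seq groups overlapped, and their log2 fold change was -0.35 (SE 0.23, 95% interval -0.84 to 0.14, edgeR adjusted p = 0.373) and -0.57 without db/db animals 1 to 4. IP relative to RNA-seq reads of Bmp7 differed by -0.09 on the log2 scale (SE 0.33, edgeR adjusted p = 0.978).

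The other 3 of these genes had few reads. The Tgfb2 peak, chr1:186705601-186705750, rested on single animals, since the IP gave 0, 0, 0, 0, 0 and 19 reads in db/db and 1, 29, 0, 0 and 0 in db/m mice. Bmp4, the ligand bound tightly by gremlin 1, had 7 IP reads in all db/db and 8 in all db/m animals. Bmp1 had IP reads of 2, 2, 13, 0, 2 and 0 in db/db and 0, 5, 3, 4 and 0 in db/m mice. The Bmp1 peak, chr14:70520141-70520260, lies 680 bases from a peak of the lung gene Sftpc. That peak had 193, 151, 135 and 45 IP reads for db/db animals 1 to 4, none for db/db animals 5 and 6 and at most 1 for a db/m animal. The part of that neighbour in the Bmp1 reads was not tested.

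Acvr1b, the activin type IB receptor (ALK4), had the best covered peak of the 14 family regions. It spanned 329 bases at chr15:101211682-101212010, at the same bounds in both lists. IP reads of Acvr1b were 382, 583, 416, 535, 362 and 312 in db/db and 302, 471, 202, 291 and 306 in db/m mice. The highest values were in db/db animals 2 and 4. The groups overlapped in CPM, with db/m animal 2 among the db/db animals and db/db animal 6 among the db/m animals. The means were 48.9 ± 12.0 CPM (SD, n = 6) in db/db and 33.7 ± 10.1 CPM (SD, n = 5) in db/m mice, which is a log2 fold change of 0.53 (SE 0.23, 95% interval 0.06 to 1.01) with an edgeR p of 0.0304 and an adjusted p of 0.182. RNA-seq reads were 71, 104, 99, 95, 77 and 50 in db/db and 64, 60, 39, 55 and 60 in db/m mice, so that 5 of 6 db/db animals lay above every db/m animal in CPM and db/db animal 6 lay among them. The RNA-seq means were 25.0 ± 6.03 CPM (SD, n = 6) and 17.8 ± 2.99 CPM (SD, n = 5), a log2 fold change of 0.49 (SE 0.19, 95% interval 0.09 to 0.90) with an edgeR p of 0.0191 and an adjusted p of 0.113. IP relative to RNA-seq reads of Acvr1b differed by 0.08 on the log2 scale (SE 0.22, edgeR adjusted p = 0.969). Without db/db animals 1 to 4 the IP log2 fold change of Acvr1b was 0.11 and that of RNA-seq reads was 0.16.

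Bmpr1a, a BMP type I receptor (ALK3), had 14 IP reads in all db/db and 5 in all db/m animals, and Acvr1c (ALK7) had 5 and 6, which are too few for a comparison. No other receptor gene had a peak. RefSeq lists 30 genes that match the family names, and 19 of them had no peak in the table, among them Tgfbr1, Tgfbr2, Tgfbr3, Bmpr1b, Bmpr2, Acvr1, Acvr2a, Acvr2b and Acvrl1 of the receptors, Tgfb3, Bmp2, Bmp3, Bmp5 and Bmp6 of the ligands, and Smad1, Smad3, Smad4, Smad5 and Smad6. A gene without a peak has no count in the table, so its RNA level was not analysed here.

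Smad2, which carries TGF-β and activin signals to the nucleus, had its main peak on chromosome 18 from base 76262477 to 76262685. IP reads there were 74, 155, 197, 156, 60 and 260 in db/db and 183, 214, 173, 177 and 200 in db/m mice. The db/db animals spread widely, with animals 1, 2, 4 and 5 below and animals 3 and 6 above every db/m animal in CPM, and the db/m animals lay close together. The means were 16.8 ± 7.89 CPM (SD, n = 6) in db/db and 20.4 ± 1.95 CPM (SD, n = 5) in db/m mice, which is a log2 fold change of -0.28 (SE 0.31, 95% interval -0.93 to 0.37, edgeR adjusted p = 0.682). RNA-seq reads of Smad2 were 68, 72, 94, 72, 47 and 72 in db/db and 66, 122, 70, 62 and 93 in db/m mice. The RNA-seq groups overlapped, with a log2 fold change of -0.30 (SE 0.19, 95% interval -0.70 to 0.10, edgeR adjusted p = 0.351) that became -0.52 without db/db animals 1 to 4. A second Smad2 region near the gene start had 28 IP reads in db/db and 40 in db/m mice, and 20 of the former were from db/db animal 6.

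Smad7, the inhibitory Smad induced by TGF-β, had 3 regions near its start. The best covered, from base 75368998 to 75369058 of chromosome 18, had IP reads of 9, 5, 42, 26, 12 and 59 in db/db and 15, 58, 15, 10 and 4 in db/m mice. Single animals stood high in both groups, db/db animals 3 and 6 and db/m animal 2. The means were 2.85 ± 2.28 CPM (SD, n = 6) and 2.17 ± 2.27 CPM (SD, n = 5), a log2 fold change of 0.39 (SE 0.71, 95% interval -1.10 to 1.88, edgeR adjusted p = 0.826). This value was 0.05 without db/db animal 6, 1.26 without db/m animal 2 and 0.78 without db/db animals 1 to 4. The region starting at base 75368579 had 19 IP reads in db/db and 12 in db/m mice, and the region starting at base 75368099 had 1 IP read in each genotype against 7 and 2 RNA-seq reads. Smad9, a Smad of the BMP branch, had IP reads of 0, 1, 10, 0, 1 and 4 in db/db and 0, 1, 0, 1 and 0 in db/m mice over a peak of 3050 bases.

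**Figure D2:**
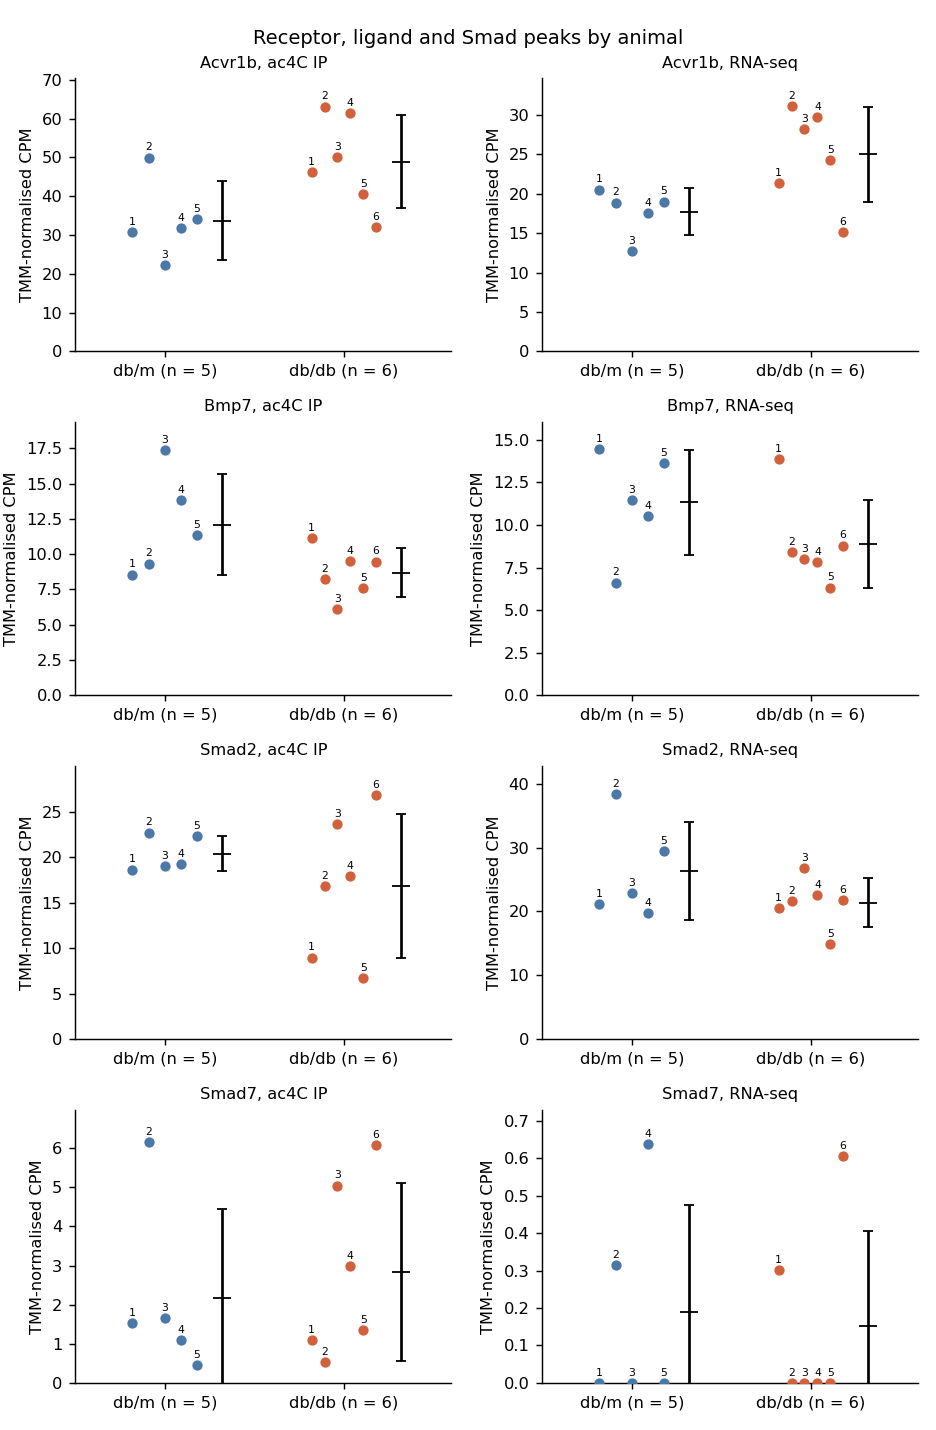
Levels of the best covered peak of Acvr1b, Bmp7, Smad2 and Smad7 in each animal, in TMM-normalised CPM, with ac4C IP at the left and RNA-seq at the right. Points are animals with their number, and the bar beside each group is the mean ± SD (n = 5 db/m and n = 6 db/db). The genotypes overlap in every panel.

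None of the 18 family peaks was called at an edgeR adjusted p under 0.05 with an absolute log2 fold change over 1. Over all peaks the share called in this way was 3.32% for IP reads, 3.95% for RNA-seq reads and 0.0203% for the relative change of IP over RNA-seq. With no fold threshold the count among the family peaks stayed 0 in all 3 fits, against 6.45% of all peaks for IP and 11.3% for RNA-seq. This rested on db/db animal 6 for RNA-seq reads of Acvr1b, which passed without it at a log2 fold change of 0.60 (edgeR adjusted p = 0.023). At an unadjusted p under 0.05, 2 of 18 family peaks passed for IP and 2 for RNA-seq, both times the identical Acvr1b peaks of the 2 lists, against 21.2% and 24.5% of all peaks. DESeq2 gave 0 at an adjusted p under 0.05 and 2 at an unadjusted p under 0.05 for both library types. The lowest adjusted p of a family peak was 0.182 for IP reads, 0.113 for RNA-seq reads and 0.808 for the relative change. The median log2 fold change over the 18 peaks was 0.43 in IP reads, beside 0.00 over all peaks, and became 0.15 with 1 peak a region. In RNA-seq reads it was -0.20, beside -0.01 over all peaks, but this is the fitted value of peaks with 1 read in each genotype, such as Bmp4 and Tgfb2, and says nothing of the family. Of the 14 family regions, 9 had a mean under 10 IP reads a library, with 2 to 68 IP reads and 1 to 9 RNA-seq reads over all 11 animals, so their differences were not detectable at this depth unless very large.

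The longer Grem1 peak was covered in db/db animals 1 to 6 by 148, 100, 117, 167, 72 and 95 IP reads and in the 5 db/m animals by 0, 17, 30, 29 and 2. Every db/db animal lay above every db/m animal. For the shorter peak the counts were the same but for db/db animal 2, with 82 reads. The levels were 13.3 ± 4.52 CPM (SD, n = 6) in db/db and 1.69 ± 1.56 CPM (SD, n = 5) in db/m mice, and the fitted log2 fold change was 2.96 (SE 0.62) for the longer and 2.93 (SE 0.63) for the shorter peak. Summed over animals and scaled to the libraries, 699 reads in db/db against 78 in db/m mice gave a ratio of 8.34, with a 95% interval of 6.59 to 10.7 that covers counting error only. Leaving out 1 animal at a time moved the log2 fold change between 2.67, without db/m animal 1, and 3.38, without db/m animal 3. None of the 18 family peaks shared the pattern of groups that do not overlap in IP level, which 5.77% of all peaks had.

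The RNA-seq reads of the longer Grem1 peak were 8, 6, 21, 9, 0 and 5 in db/db and 0, 0, 1, 0 and 0 in db/m mice. The groups overlapped only through db/db animal 5, which had no RNA-seq read there although it had 72 IP reads. The levels were 2.42 ± 2.0 CPM (SD, n = 6) in db/db and 0.0654 ± 0.146 CPM (SD, n = 5) in db/m mice. The ratio of the summed reads, 49 against 1, was 40.8 with a 95% counting interval of 6.98 to 1643, so its size is poorly known. In db/db mice the mean IP level was 5.48 times the mean RNA-seq level. The same quotient in db/m mice rests on 1 RNA-seq read, so a change of ac4C relative to the amount of Grem1 RNA could not be measured.

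The Grem1 reads were set beside the lung transcripts and the stromal markers, since Grem1 is made by fibroblast-like cells in many organs. The 4 db/db animals with lung reads in the IP library had the 4 highest Grem1 IP levels in the longer peak, 10.8 to 19.2 CPM. This order did not hold in the shorter peak, where db/db animal 2, at 8.87 CPM, lay below db/db animal 6, at 9.78 CPM. Animals 5 and 6, with 2 lung reads each, had Grem1 levels of 8.04 and 9.78 CPM, against at most 3.29 CPM in a db/m animal. With these 2 as the only db/db animals the fitted log2 fold change was 2.39. In RNA-seq libraries the lung sum rested on 0 to 4 reads a library, and its ranges overlapped between the genotypes. Grem1 reads were found there in 5 of 6 db/db and 1 of 5 db/m animals. Of 10 markers of stroma, mesangium and smooth muscle, Myh11, Pdgfra and Pdgfrb had a peak, and Col1a1, Col1a2, Col3a1, Dcn, Lum, Acta2 and Tagln had none. None of the 3 passed an edgeR adjusted p under 0.05 in either library type. Their summed RNA-seq level was 61.3 to 87.4 CPM in db/db and 39.9 to 79.4 CPM in db/m mice. The value of 79.4 CPM was that of db/m animal 2, and the other db/m animals, at most 56.2 CPM, lay below every db/db animal. This sum was nearly all Myh11, whose best covered peak had an RNA-seq log2 fold change of 0.47 (edgeR adjusted p = 0.0753). The Pdgfra and Pdgfrb peaks had at most 8 RNA-seq reads in a genotype, too few to show a change of fibroblast-like cells. The best covered Pdgfra peak had 238 IP reads in db/db and 170 in db/m mice. Its IP log2 fold change was 0.30 (SE 0.57, edgeR adjusted p = 0.831). The part of lung or stromal RNA, or of the tubule markers that differed between genotypes, in the Grem1 values was not tested.

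**Figure D3:**
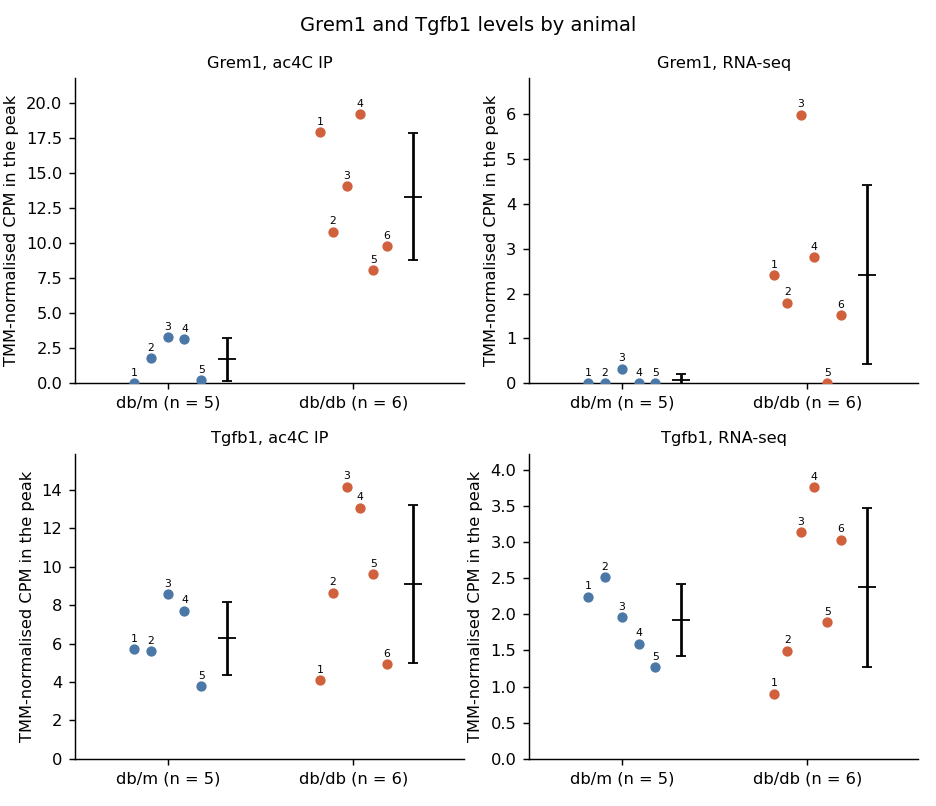
Levels of the longer Grem1 peak and the longer Tgfb1 peak in each animal, in TMM-normalised CPM, with ac4C IP at the left and RNA-seq at the right. Points are animals with their number, and the bar beside each group is the mean ± SD (n = 5 db/m and n = 6 db/db). The db/db animals lie above all db/m animals for Grem1 in the IP only, while the groups overlap for Tgfb1.

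**Figure D4:**
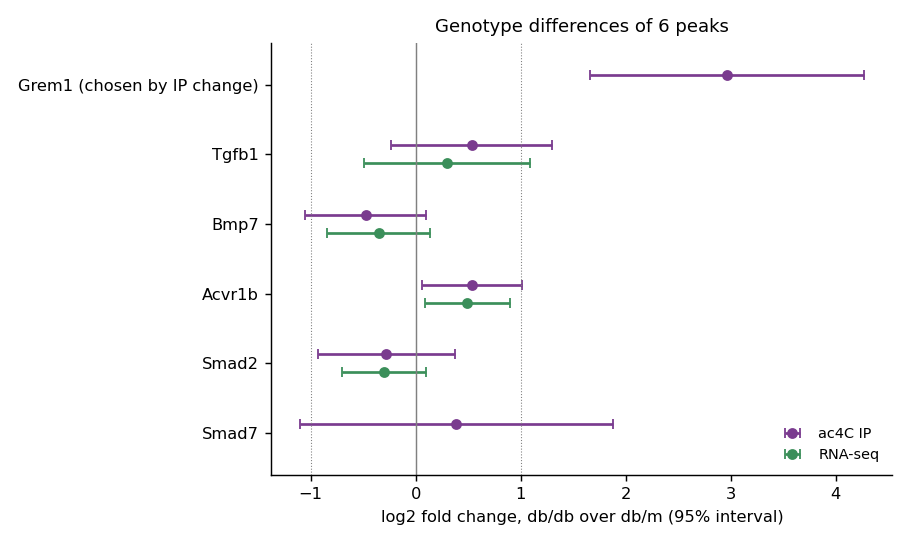
Log2 fold change between the genotypes of the 6 regions with a mean of 10 or more IP reads, with 95% intervals from edgeR for ac4C IP reads and RNA-seq reads. RNA-seq values are left out for Grem1 and Smad7, which have few RNA-seq reads, and dotted lines mark a log2 fold change of 1 in either direction. Grem1 was chosen by its change in these IP reads, so its interval is a description and no test. Of the other 5 regions only the Acvr1b intervals leave out 0, before adjustment.

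The family peaks differed in their IP level relative to their RNA-seq level. The IP libraries were made from oligo(dT)-enriched mRNA, whereas the labels name total RNA for the RNA-seq libraries. The part of this difference in the quotients below was not tested. The IP level over the RNA-seq level of the same animal averaged 4.17 ± 1.45 (SD, n = 6) in db/db and 3.39 ± 1.15 (SD, n = 5) in db/m mice for Tgfb1. For Acvr1b it was 1.97 ± 0.202 and 1.89 ± 0.436, for Bmp7 1.01 ± 0.193 and 1.13 ± 0.399, and for Smad2 0.761 ± 0.294 and 0.806 ± 0.144, in the same order. The means of Tgfb1 and Acvr1b thus stood above the upper quartile of the 6724 peaks with a mean of 10 or more RNA-seq reads. The median of those peaks was 1.07 and their quartiles 0.757 and 1.58, and Bmp7 and Smad2 lay near or under that median. Tgfb1 itself has fewer RNA-seq reads than those peaks, and its quotient ran from 1.63 to 5.78 in db/db mice. Quotients of group means were higher still for Grem1 in db/db mice (5.48) and for the best covered Smad7 region (18.8 in db/db and 11.4 in db/m mice). That Smad7 region had only 3 RNA-seq reads in each genotype. An exact permutation test over all splits of the 11 animals of the log2 quotient gave a two-sided p of 0.413 for Tgfb1 and 0.578 for Acvr1b. Per kilobase of peak, the RNA-seq level over all 11 animals was highest for Smad2 at 113 CPM, followed by Bmp7 at 66.6, Acvr1b at 66.0, Tgfb1 at 14.4 and Grem1 at 6.44. The order of Bmp7 and Acvr1b turned with genotype, since the db/db means per kilobase were 59.1 for Bmp7 and 76.0 for Acvr1b and the db/m means 75.5 and 54.0. For Grem1 the db/db mean was 11.5 and the db/m mean 0.312, the latter from 1 read. The peaks lie at unlike places in their genes, so this order is not one of transcript amount.

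**Figure D5:**
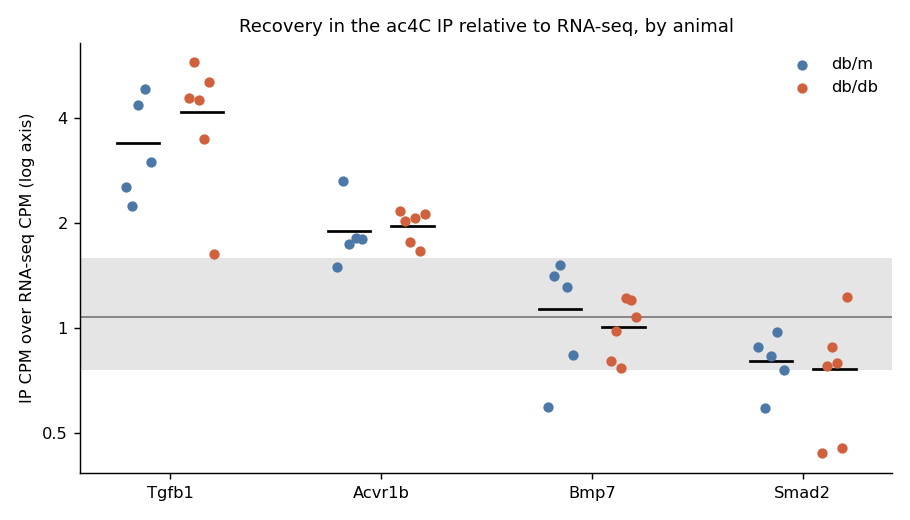
IP level divided by RNA-seq level in the same animal, both in CPM, for the 4 family regions with RNA-seq reads in every library. Points are animals, short lines are group means, and the grey line and band are the median (1.07) and quartiles (0.757 to 1.58) of 6724 peaks. The y axis is logarithmic, and Tgfb1 lies above the band in all 11 animals while the genotypes overlap for each gene.

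A wider list of 117 pathway genes outside the family names had 45 peaks in 29 genes. Of these peaks, 2 were called higher and 0 lower in db/db IP reads, both of them the identical Gdf11 peaks of the 2 lists, beside 3.32% called of all peaks. None was called in RNA-seq reads or in IP relative to RNA-seq reads. The median log2 fold change over the 45 peaks was -0.14 for IP and 0.03 for RNA-seq. Gdf11, a ligand close to myostatin that signals through activin receptors and Smad2, had 530, 961, 939, 1078, 667 and 442 IP reads in db/db and 365, 364, 460, 357 and 352 in db/m mice at chr10:128884714-128884982. Only db/db animal 6 lay within the db/m range of CPM. Gdf11 IP reads rose by a log2 fold change of 1.10 (SE 0.23, edgeR adjusted p = 0.00626), from 40.9 ± 5.46 CPM (SD, n = 5) to 87.4 ± 30.7 CPM (SD, n = 6). Its RNA-seq reads rose by 0.94 on the log2 scale (SE 0.23, edgeR adjusted p = 0.0117), under the fold threshold, and IP relative to RNA-seq reads differed by 0.16 (SE 0.18, edgeR adjusted p = 0.893). In RNA-seq libraries db/db animals 1 and 6, at 28.3 and 32.8 CPM, lay within the db/m range of 18.2 to 34.3 CPM. With only db/db animals 5 and 6 the IP log2 fold change of Gdf11 was 0.56 and its adjusted p 0.412, so the call was lost, and without db/db animal 4 it was 0.97, just under the fold threshold. The RNA-seq log2 fold change with only these 2 animals was 0.64 and its adjusted p 0.237. The Aqp2, Lrp2 and Slc34a1 values given above moved with genotype in the same libraries, and their part in the Gdf11 change was not tested.

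In the list of extracellular antagonists and modulators of BMPs, which leaves out Grem1, no gene was called in any comparison. Of 25 genes in that list, Chrd, Neo1, Nog, Rgmb, Sost and Twsg1 had a peak, 8 peaks in all, of which 4 had an unadjusted p under 0.05 in IP reads, a share to be set beside the 21.2% of all peaks. These 4 peaks, of Chrd, Neo1, Nog and Rgmb, had few reads. Twsg1, a BMP-binding modulator, was the only one with many reads, at 1634 IP reads in db/db and 1197 in db/m mice and an IP log2 fold change of 0.27 (SE 0.27, edgeR adjusted p = 0.627). Noggin, encoded by Nog, had 0 IP reads in db/db and 13 in db/m mice, and chordin, encoded by Chrd, had 39 and 2, of which 29 were from 1 db/db animal. The Chrd peak also lies within the RefSeq gene Thpo. The Rgmb peak, of a BMP co-receptor, had 3 IP reads in db/db and 32 in db/m mice. Sost, the gene of sclerostin, had 3 and 4 IP reads but 16 RNA-seq reads in db/db and 1 in db/m mice (edgeR adjusted p = 0.0697). Among the genes for latent TGF-β binding and release, 4 of 18 had a peak and 0 were called, and among 25 target genes 4 had a peak and 0 were called. The list of 25 intracellular regulators had 22 peaks in 11 genes, of which 0 were called. Over all peaks the share called was 3.32% for IP reads, 3.95% for RNA-seq reads and 0.0203% for the relative change. At these shares, 0 called in lists this small says little about those genes.

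The genes whose levels most resembled Grem1 from animal to animal within each genotype were Ecm2, Nfxl1, Gpat4, Prpf38b and Cdk9. Likeness was the smaller of 2 Pearson correlations over the 11 animals, 1 in IP and 1 in RNA-seq libraries, of log2(CPM + 1) less the genotype mean, over 6666 peaks. Ecm2, an extracellular matrix protein gene, had r = 0.786 in IP and 0.887 in RNA-seq libraries, Nfxl1 had 0.772 and 0.760, Gpat4 had 0.697 and 0.747, Prpf38b had 0.703 and 0.651, and Cdk9 had 0.788 and 0.646. The RNA-seq values of Grem1 rest on 0 to 21 reads, so these are descriptions of few reads over shared libraries.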

How the data were processed

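Per the labels, the title gives each library its genotype, animal number and type. The authors enriched mRNA with oligo(dT) beads for the acRIP-seq libraries, broke it into short fragments and aligned clean reads. The aligner, peak caller and counting tool are not given in the sources used here. The labels' protocol says RNA-seq libraries were made from total RNA. The deposited table gives whole read counts per peak and library without normalization, a fold enrichment (a linear ratio), and a p-value and FDR of each peak, of which the FDR was read. Its columns with the authors' genotype comparison (log2 change, p and adjusted p) were not used. Starts were taken as counted from 0, since start plus 1 matched a RefSeq gene start in 103 peaks and the start as given in 8.

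The members and gene lists were chosen with earlier results of these data known. Values by animal were given for Grem1, Tgfb1, peaks with an adjusted p under 0.05 and the best covered peak of each family gene, with low peaks as totals. Pathway genes were named where a peak was called. Genes of the antagonist list, and Sftpc, were named after their values were seen.

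Count tests were run with edgeR 4.0.16 (TMM, glmQLFit, glmQLFTest) in R 4.3.3 over all 9857 peaks, IP and RNA-seq apart, with genotype as the term. IP relative to RNA-seq was the interaction of library type and genotype with a term for the animal. In that fit the prior degrees of freedom were infinite, so single peaks' spreads were replaced by the trend. p-values were adjusted by Benjamini-Hochberg over all peaks. Alternatives were DESeq2 1.42.0, no TMM, filterByExpr, no fold threshold, 1 peak a region, a replicate block, each animal left out, and, added after the data were seen, db/db animals 5 and 6 only. The fits were tested on simulated data. Summaries and exact permutation tests used Python 3.11.15, numpy 2.4.6, scipy 1.17.1 and pandas 2.3.3. Intervals on summed reads cover counting error only, since PCR copies were not separated. The labels do not state more on the origin of replicates than 1 number an animal. Replicate libraries of a group differed beyond sampling noise in every pair.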

Additional observations from a re-analysis of the deposited data

Results flagged for a closer look

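In 9 of 34 groups of libraries of the family peaks, 1 library stood apart from the rest by Dixon's test. By chance 1.7 would be flagged if levels were normally distributed. Many of these groups hold few reads with zeros among them, so 9 against 1.7 does not measure an excess of outliers. Groups whose highest library had 3 reads or fewer were not tested. In IP libraries of db/db animal 3, Bmp1 stood at 1.56 CPM (13 reads), the Smad7 region starting at base 75368579 at 1.44 CPM (12 reads) and Smad9 at 1.20 CPM (10 reads). In the IP library of db/db animal 6, Tgfb2 stood at 1.96 CPM (19 reads) and the Smad2 region near the gene start at 2.06 CPM (20 reads). For db/m animal 2, IP levels of Tgfb2 stood at 3.07 CPM (29 reads) and of the best covered Smad7 region at 6.15 CPM (58 reads). The Smad7 region starting at base 75368579 stood at 1.11 CPM (10 reads) in db/m animal 5, also in the IP. Bmp7 stood at 13.9 CPM (46 reads) in the RNA-seq library of db/db animal 1. Of the 9 values, 8 were in IP libraries and 1 in an RNA-seq library.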

How the results depend on the processing

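The count of called family peaks was 0 for the IP, the RNA-seq and the relative comparison under every alternative run. For the relative comparison these include an exact permutation test that called none of the 9857 peaks at its lowest adjusted p of 0.647, so its 0 says nothing of stability. With a replicate block of the animal numbers the counts were 0, and the Acvr1b log2 fold change was 0.68 in IP reads (edgeR adjusted p = 0.0537) and 0.60 in RNA-seq reads (edgeR adjusted p = 0.00883, under the fold threshold). The numbers did not pair the animals, since deviations of same-numbered libraries correlated from -0.246 to 0.209 in IP and from -0.398 to 0.515 in RNA-seq libraries, and 1 and 2 of 5 numbers correlated best with their own. Without db/db animal 6 the Acvr1b RNA-seq value was 0.60 (edgeR adjusted p = 0.023). The Gdf11 RNA-seq log2 fold change was 0.64 with db/db animals 5 and 6 only (edgeR adjusted p = 0.237) and passed 1 with the block (1.01), without TMM (1.02), and without db/db animal 1 (1.07), db/db animal 6 (1.05) or db/m animal 2 (1.04).

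Signs turned only for IP relative to RNA-seq reads, in values near 0 that never passed the test. Leaving out 1 animal at a time, Acvr1b ranged from -0.011 (without db/m animal 1) to 0.21 (without db/m animal 2), Bmp7 from -0.31 (without db/m animal 1) to 0.047 (without db/m animal 3), and Smad2 from -0.25 (without db/db animal 6) to 0.042 (without db/db animal 1), with 0.018 without db/db animal 5. With no replicate block Smad2 was 0.034. With db/db animals 5 and 6 only, Acvr1b was -0.044, Bmp7 0.057, Tgfb1 -0.24 and Gdf11 -0.13. The cause was not tested. The filter on low counts removed the Tgfb1 RNA-seq value, and the low reads of 9 regions limit what they can show.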
